A study of Mus musculus with 6 samples.

Results

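Calbindin, calretinin and parvalbumin are calcium-binding proteins of the EF-hand type, and Calb1, Calb2 and Pvalb are the genes that encode them. These 3 of the 18560 genes in the deposited count table were taken by name, and their unique molecular identifiers (UMIs, each standing for 1 captured RNA molecule) were followed over every cluster and library of a single-cell survey of the mouse olfactory bulb. The table held 761 UMIs of Calb1, 69966 of Calb2 and 245 of Pvalb.

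EF-hand proteins bind calcium in a helix-loop-helix pocket. Calbindin, calretinin and parvalbumin act mainly as buffers that shape the size and duration of calcium signals, whereas relatives such as calmodulin pass the signal on to target enzymes. In the bulb the 3 proteins have long been used to tell interneurons apart. Calretinin and calbindin mark separate types of periglomerular cell around the glomeruli, calretinin also marks some granule cells, and parvalbumin marks interneurons of the external plexiform layer.

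The 6 libraries fell into 3 groups of 2: control 1 and 2, naris occluded 1 and 2, and trained 1 and 2, and values are given in that order. All mice were C57BL/6NJ at 14 weeks of age, and each library was a pool of 3 animals, males in replicate 1 and females in replicate 2, so that replicate and sex cannot be told apart. Naris occluded mice had a plug in 1 nostril, and the study took the occluded side as the deprived sample. Trained mice were deprived of water and learned to discriminate odors for a water reward. Each manipulation lasted 6 weeks. The study describes no water deprivation of the other mice, so training and water deprivation cannot be told apart. Control mice are labelled as having had no manipulation, although the text of the study also speaks of the open side of occluded mice. The dissection took in some olfactory epithelium.

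The libraries held 6705 to 10570 cells and 11841160 to 17065083 UMIs, with a median of 1028 to 1723.5 UMIs per cell. Of 52549 barcodes, 51426 had a cluster in the authors' annotation, 28925 of them in 22 nonneuronal clusters, and 21746 neurons carried a second annotation into 18 clusters, n01 to n18. The clusters were built from expression in these same cells. The study read n05-PGC-2 and n08-PGC-3 as periglomerular from their Th and Calb1, and took Calb2 as a marker of n03-GC-1. Peaks of these genes there are therefore no independent check of the annotation. Among the marker genes, Th, the dopamine-synthesis enzyme, was highest of the neuronal clusters in n05-PGC-2, the glutamate transporter Slc17a7 in the mitral and tufted cluster n17-M/TC-3, the GABA transporter Slc32a1 in n18-EPL-IN and Omp of olfactory sensory neurons in n01-OSNs. The GABA-synthesis genes peaked elsewhere, Gad1 in n12-GC-6 (2344 CPM, against 1027 in n18-EPL-IN) and Gad2 in n05-PGC-2 (1155 against 354). Of the other glutamate and mitral and tufted markers, Cdhr1 was highest in n17-M/TC-3, Slc17a6 and Eomes in n16-M/TC-2 and Tbx21 in n15-M/TC-1. Of the astrocyte genes, Gfap and Aqp4 were highest of the neuronal clusters in n13-AstrocyteLike, at 134 and 59.8 CPM against 18.9 and 12.9 in n02-PGC-1, and Slc1a3 was highest in n02-PGC-1, at 696 CPM against 178. Of the myelin genes, Mbp was highest in n13-AstrocyteLike at 4735 CPM, where Mag and Mog were at 8.89 and 9.68. The endothelial genes Cldn5, Slco1c1 and Flt1 were highest in n15-M/TC-1, at 402, 58.3 and 57.5 CPM, and Slc17a7 and Th stood at 414 and 243 CPM in n18-EPL-IN. Between 65 and 144 barcode sequences were shared by any 2 libraries. In the trained libraries the start of the cell names and the library column were exchanged for 17275 cells, and the library column was used.

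The transcripts of the 3 genes share only short stretches. The coding sequences of Calb1 (786 bases) and Calb2 (816 bases) were identical at 65.2% of 843 aligned positions. That of Pvalb (333 bases) was identical at 35.8% of 791 positions with Calb1 and at 35.4% of 817 with Calb2. Most positions of these 2 alignments lie opposite gaps, since Pvalb is much shorter. The longest run without a mismatch that any pair of the transcripts shared was 12 bases. The 2 windows below are shown because they hold that run, in capitals, in the coding part of both transcripts of the GENCODE vM1 set:
Calb1: ttacccacaGAAGAGAATTTCttgctgctc
Calb2: ctgccgaccGAAGAGAATTTCcttttgtgc
For Pvalb the longest runs were 11 bases, and the windows below show, in capitals, the one shared with Calb2, again in both coding parts:
Calb2: acattttatGACAAGGATGGaagcggcta
Pvalb: gccgctggaGACAAGGATGGggacggcaa
In the RefSeq annotation of GRCm38 (mm10), Calb1 lies on chromosome 4 at 15881264 to 15906709, Calb2 on chromosome 8 at 110142526 to 110168212 and Pvalb on chromosome 15 at 78191112 to 78206400. The values below count 3′ ends and are given as counts per 1000000 UMIs of a cluster in a library (CPM), averaged over 6 libraries with their SD. Levels of one gene are compared among clusters, and no level is compared between genes as an amount of protein.

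Calb2 was concentrated in 2 clusters. The granule cell cluster n03-GC-1 (1914 cells) held 56.0% of all Calb2 UMIs in annotated cells and the periglomerular cluster n02-PGC-1 (1037 cells) held 19.0%. In n03-GC-1 the level was 14237 and 12123 CPM in controls, 16175 and 13669 in naris occluded and 9035 and 13534 in trained libraries, a mean of 13129 ± 2397 (SD, n = 6). In n02-PGC-1 it was 6506 and 6336, 7188 and 7071, and 5290 and 6541 CPM in the same order, a mean of 6489 ± 677. Every library placed n03-GC-1 above n02-PGC-1, and n02-PGC-1 above all other clusters.

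The order below these 2 clusters was less certain. The granule cell cluster n11-GC-5 stood at 1137 ± 274 CPM and the mitral and tufted cluster n17-M/TC-3 at 892 ± 324, and these 2 neighbors did not differ beyond their spread. The cluster n13-AstrocyteLike followed at 519 ± 220 CPM, below n17-M/TC-3 in 6 of 6 libraries. From there down to n12-GC-6 at 95.5 ± 64.5 CPM no neighboring pair differed beyond the larger SD of the pair, so that 3 of 17 neighboring pairs did so over the whole order.

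**Figure D1:**
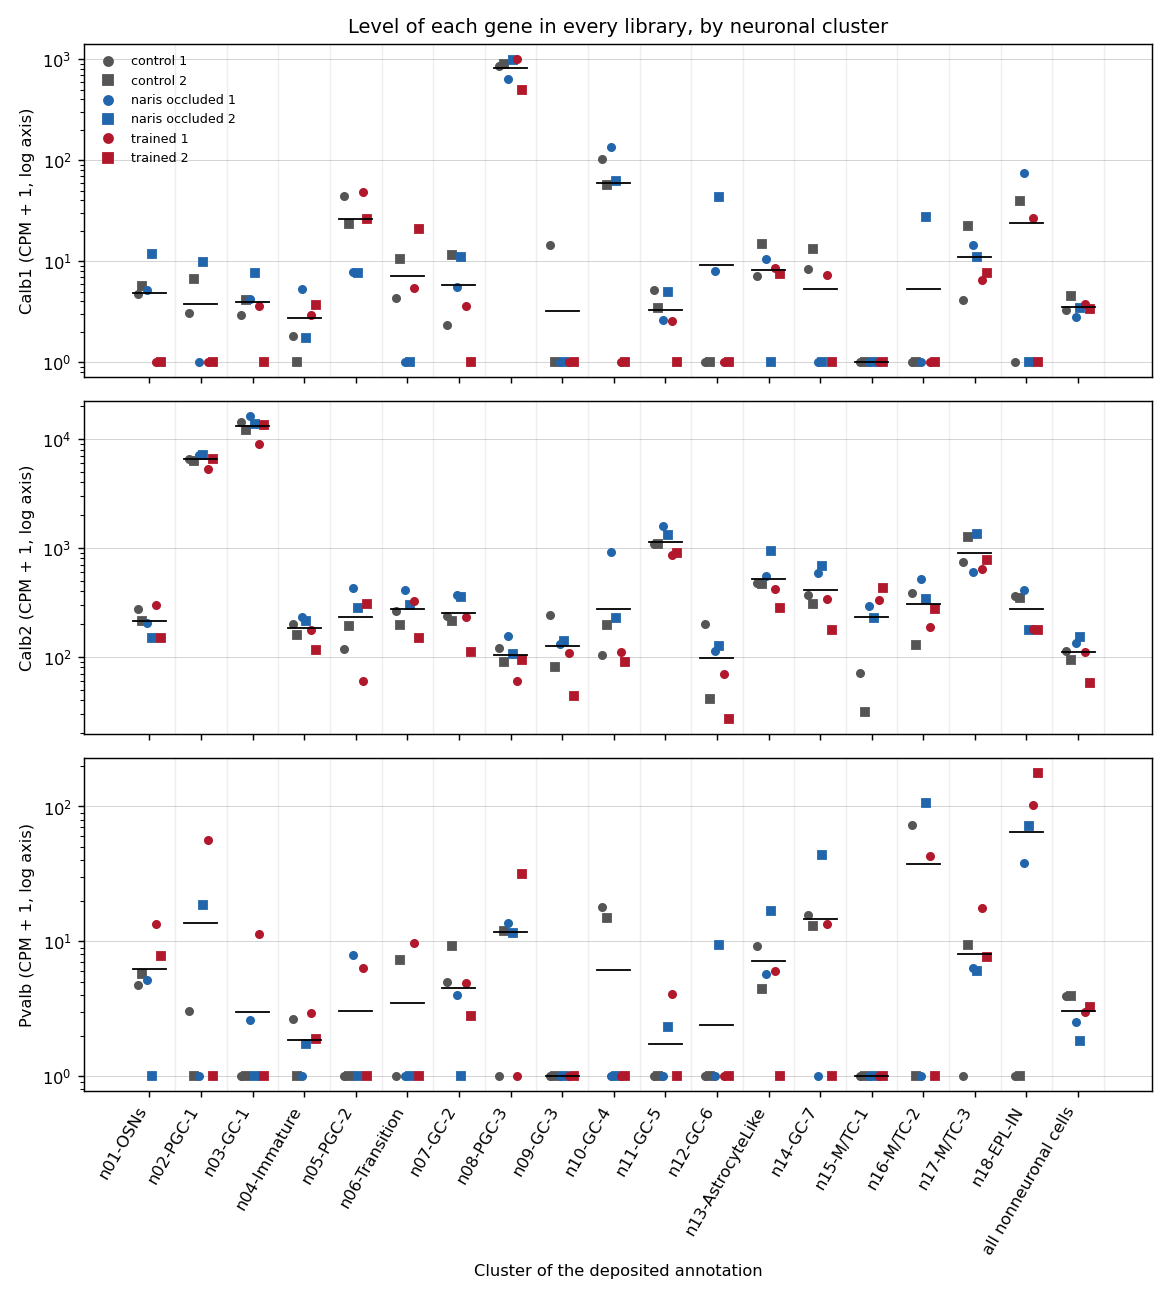
Level of Calb1, Calb2 and Pvalb (CPM + 1, log axis) in each neuronal cluster and in all nonneuronal cells, with 1 point per library and a line at the mean. Calb2 peaks in n03-GC-1 and n02-PGC-1, Calb1 in n08-PGC-3, and Pvalb rests on few UMIs, with many libraries at 0 CPM.

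Part of the Calb2 signal was present in every kind of cell. Among nonneuronal cells, which include microglia, endothelial cells and red blood cells, 16.4% had a Calb2 UMI at a median depth of 1645 UMIs. The share was 14.2% in macrophages, the lowest of the 22 nonneuronal clusters, and 28.0% in oligodendrocyte precursors, the highest. In n03-GC-1, 93.4% of cells had a Calb2 UMI at a median depth of 1416, and in n02-PGC-1 94.9% at a median depth of 1846. With every cell thinned to 500 UMIs, which left out no cell, the shares were 86.4% in n03-GC-1 and 87.6% in n02-PGC-1.

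The number of Calb2 UMIs per cell separated the clusters more sharply than the share of cells with any. Cells with at least 5 Calb2 UMIs made up 74.5% of n03-GC-1, 84.7% of n02-PGC-1, 13.1% of n11-GC-5, 3.56% of n17-M/TC-3 and 0.166% of nonneuronal cells. Of the 2706 annotated cells at that level, 52.7% lay in n03-GC-1, 32.4% in n02-PGC-1 and 8.06% in n11-GC-5. The highest counts in a single cell were 112 in n03-GC-1, 72 in n02-PGC-1, 61 in n11-GC-5 and 134 in n17-M/TC-3. No cell reached 5 UMIs in n08-PGC-3, n09-GC-3 or n18-EPL-IN.

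**Figure D2:**
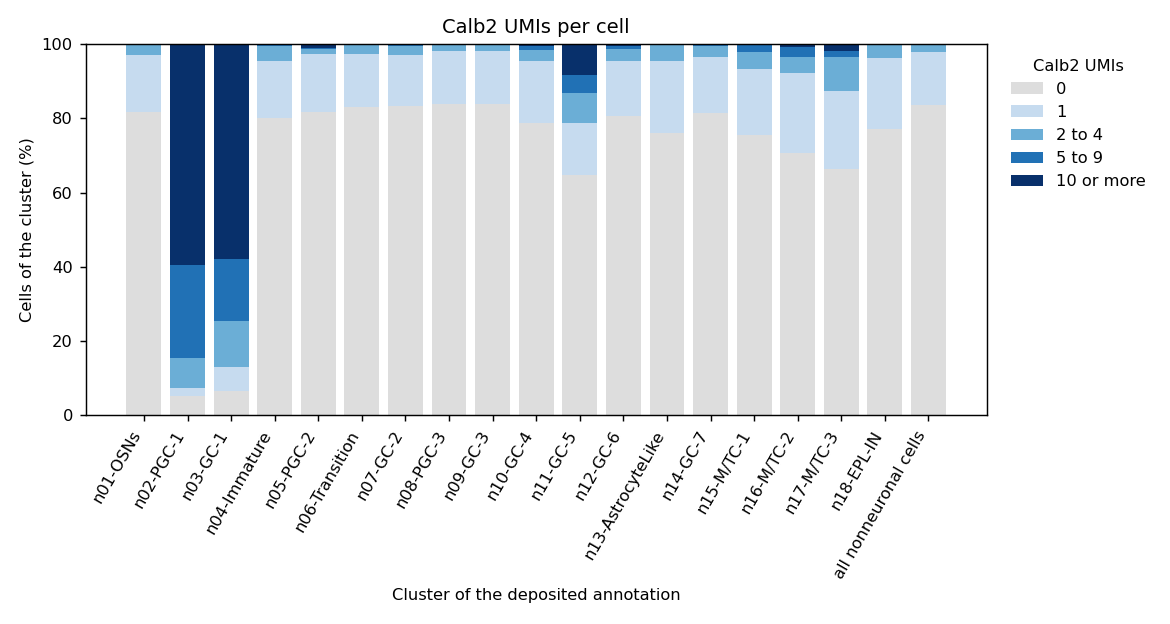
Percent of the cells of each cluster with 0, 1, 2 to 4, 5 to 9 and 10 or more Calb2 UMIs, as stacked bars. Most cells of n02-PGC-1 and n03-GC-1 carry 5 or more, n11-GC-5 has a minority of 13.1% at that level, n16-M/TC-2 has 3.45%, and n17-M/TC-3 has 3.56%, against 0.166% of the nonneuronal cells at the right.

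In the nonneuronal clusters Calb2 varied less per cell than as CPM. Leaving out cells with at least 5 UMIs, the nonneuronal clusters held from 0.161 UMIs per cell (MicroG1) to 0.344 (OPC), a 2.14-fold range. Their CPM spanned a 5.01-fold range. With all cells kept, Spearman's correlation with median depth over the 22 clusters was -0.519 for CPM and 0.251 for UMIs per cell, and without the red blood cells described below -0.747 and 0.139. The 14 neuronal clusters other than n02-PGC-1, n03-GC-1, n11-GC-5 and n17-M/TC-3 gave -0.688 for CPM and 0.354 for UMIs per cell, with 0.179 to 0.655 UMIs per cell. Depth enters the CPM as its denominator, so these correlations describe the scale and are given without a test. On the CPM scale the fifth place of n13-AstrocyteLike, whose median depth was 656, went with 0.332 Calb2 UMIs per cell. With all cells kept, that value lay inside the range of the nonneuronal clusters, 0.171 to 0.881, but above their median of 0.210.

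**Figure D3:**
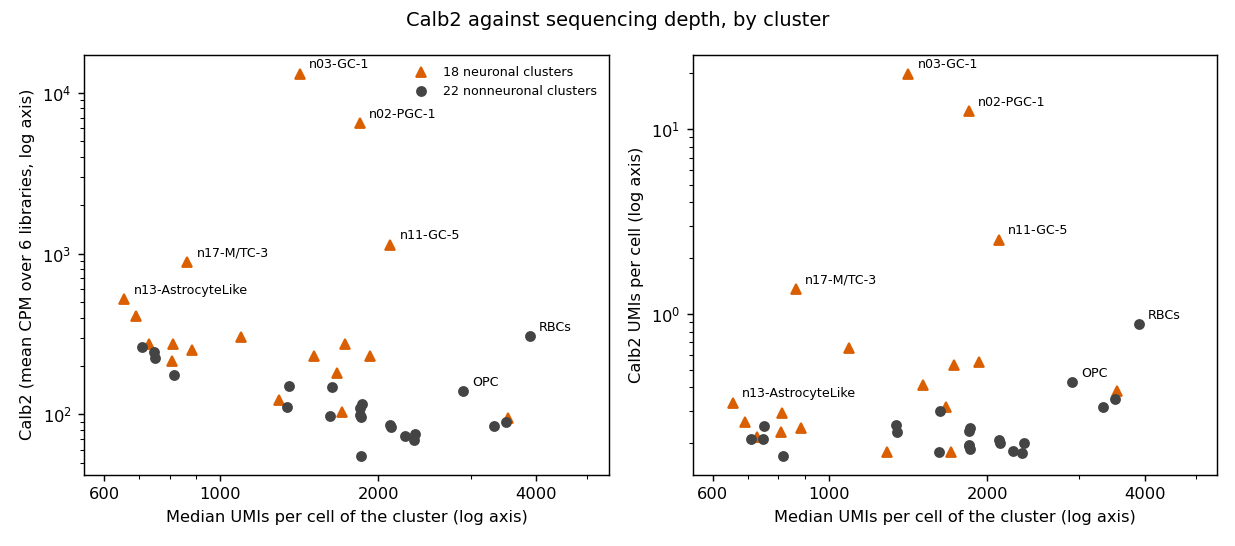
Calb2 against the median UMIs per cell of each cluster, as CPM and as UMIs per cell (all axes logarithmic), with 1 point per cluster. The shallow clusters have high CPM without high UMIs per cell, while n03-GC-1, n02-PGC-1, n11-GC-5 and n17-M/TC-3 stand above the rest on both scales.

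Red blood cells had the highest value among the nonneuronal clusters with all cells kept, at 0.881 UMIs per cell. That value came from naris occluded 2, where 4 of 30 cells held 54, 48, 26 and 22 of the 156 Calb2 UMIs. The other libraries held 0 to 17 Calb2 UMIs in red blood cells. Without cells of at least 5 UMIs, red blood cells stood at 0.2 UMIs per cell. By that measure OPC, at 0.344, stood above the next cluster, Astro2, at 0.241.

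Within n11-GC-5, cells rich in Calb2 were set beside those without it. A division of the cluster was made after its values were seen and is given without a test: 218 cells had at least 5 Calb2 UMIs and 1080 had none. Genes entered at a mean of 100 CPM or more in either set, so that a gene could enter through the set where it was high. The genes named are those of the largest difference in the same direction in 6 of 6 libraries. Gad1, Kcnip2 and Apold1 were chosen after the values were seen, and Kcnip2 and Apold1 lay below the entry level. The Calb2-rich cells were also deeper, with library medians of 2364 to 3152 UMIs against 1782.5 to 2299.

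The genes higher beside Calb2 were led by Zic1, a zinc-finger transcription factor, at 329 ± 69.4 against 30.9 ± 8.98 CPM, and by Trh, which encodes the precursor of thyrotropin-releasing hormone, at 287 ± 149 against 25.3 ± 11.1. Secretagogin (Scgn), another EF-hand protein, stood at 722 ± 173 against 135 ± 52.4 CPM. Th was at 363 ± 102 against 90.6 ± 18.9 CPM, and the synaptic vesicle gene Synpr at 3518 ± 397 against 1222 ± 157. Over the whole annotation Zic1 was highest in n03-GC-1, at 821 CPM, while Trh and Th were highest in the dopaminergic cluster n05-PGC-2, at 3881 and 1277 CPM.

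The genes lower beside Calb2 were led by neurogranin (Nrgn), a calmodulin-binding protein, at 15.4 ± 8.47 against 171 ± 36.2 CPM. Ppp3ca, the catalytic subunit of calcineurin, was at 190 against 583 CPM. The NMDA receptor subunit Grin2a, the potassium channel Kcnh3 and the calmodulin-dependent kinase kinase Camkk2 were lower in all 6 libraries as well. Gad1, which makes GABA, was at 1740 against 1527 CPM, so that both sets of cells carried it. Kcnip2, a potassium channel subunit with EF hands, stood at 1712 CPM in n09-GC-3, where Calb2 was low at 123 CPM, at 1133 CPM in n02-PGC-1 and 893 in n03-GC-1, and at 21.7 CPM in the Calb2-rich cells of n11-GC-5 and 16.8 in those without Calb2. Apold1 was highest of the neuronal clusters in n02-PGC-1, at 614 CPM. It stood at 48.2 ± 38.3 CPM in the Calb2-rich cells against 4.23 ± 2.46, higher in 6 of 6 libraries. In the authors' coarser annotation, 94.5% of the Calb2-rich cells and 91.2% of those without Calb2 fell into the same neuronal cluster, N10.

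**Figure D4:**
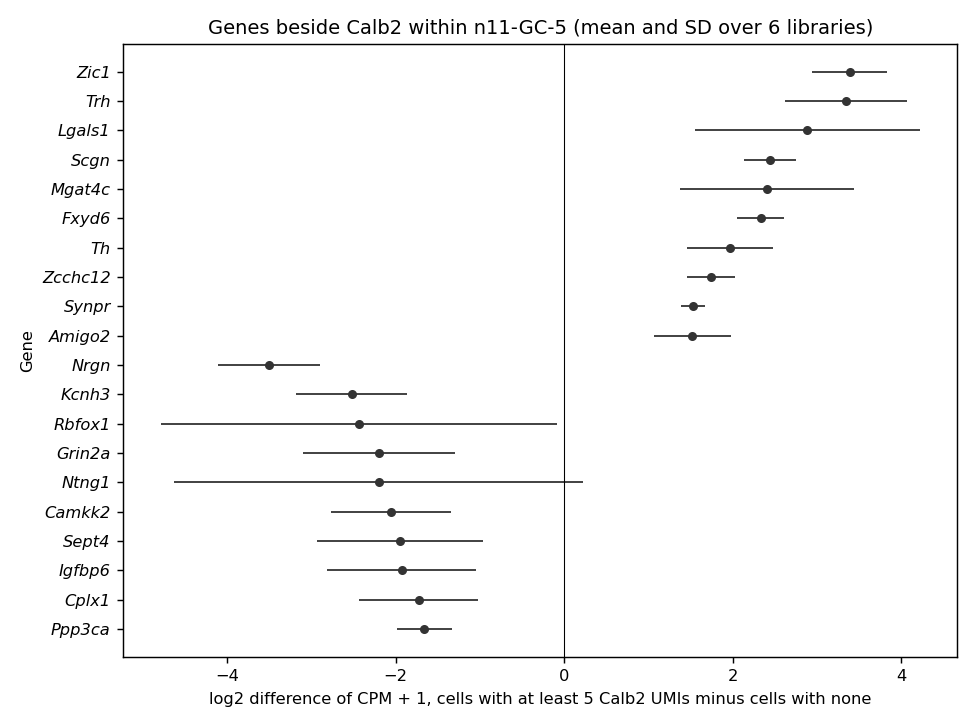
Mean difference of log2(CPM + 1) between cells of n11-GC-5 with at least 5 Calb2 UMIs and cells with none, for the 10 genes with the largest mean difference in each direction among those that moved one way in 6 of 6 libraries (bars, SD over 6 libraries). Zic1 and Trh lead the genes higher beside Calb2, and Nrgn leads those lower.

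Calb1 was highest in a different periglomerular cluster, n08-PGC-3, which the study read as periglomerular from this gene. Of the Calb1 UMIs in annotated cells, 55.5% came from the 279 cells of n08-PGC-3, and 80 of the 112 cells with at least 2 Calb1 UMIs were there. The level was 850 and 890 CPM in controls, 638 and 986 in naris occluded and 1000 and 491 in trained libraries, from 85 and 81, 50 and 94, and 85 and 16 UMIs, a mean of 809 ± 203. The lowest value belonged to trained 2, which also had the fewest cells in this cluster, 16.

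Outside n08-PGC-3 the levels of Calb1 were low. The granule cell cluster n10-GC-4 was next at 58.9 ± 54.1 CPM, with 102 and 55.6 CPM in controls, 135 and 61.0 in naris occluded and 0 in both trained libraries, but these values rested on 32 UMIs in 10 cells. The dopaminergic cluster n05-PGC-2 followed at 25.3 ± 17.3 CPM and n18-EPL-IN at 22.9 ± 29.6 CPM, and no pair among these 3 differed beyond its spread. Nonneuronal cells stood at 2.53 ± 0.562 CPM, with a Calb1 UMI in 0.411% of cells at a median depth of 1645, against 41.9% in n08-PGC-3 at a median depth of 1704. The cluster n15-M/TC-1 had no Calb1 UMI in 90 cells, which allows a share of up to 3.33% of cells with one.

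Pvalb was scarce everywhere. The interneurons of the external plexiform layer, n18-EPL-IN, ranked first at 64.0 ± 67.4 CPM, a value made from 10 UMIs in 8 of 161 cells. There were 0 and 0 UMIs in controls, 1 and 2 in naris occluded and 4 and 3 in trained libraries. The mitral and tufted cluster n16-M/TC-2 followed at 36.2 ± 44.4 CPM from 9 UMIs in 5 of 116 cells. No 2 neighbors in the order of clusters differed beyond their spread. Nonneuronal cells held 47.7% of the Pvalb UMIs of annotated cells, at 2.07 ± 0.820 CPM, with a UMI in 0.373% of cells at a median depth of 1645, against 4.97% in n18-EPL-IN at a median depth of 813. Among the nonneuronal clusters OPC had the highest share, 2.52%, from 10 UMIs in 10 of 397 cells. Mes1 held the most, 13 UMIs in 10 of 653 cells.

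A single cell of trained 1 in n02-PGC-1 carried 18 Pvalb UMIs, together with 9 of Calb2, at a depth of 8711 UMIs. Without it the mean level in n02-PGC-1 was 3.80 ± 6.94 CPM. Only 15 annotated cells held 2 or more Pvalb UMIs. No Pvalb UMI was found in n09-GC-3 (273 cells) or n15-M/TC-1 (90 cells), which allows shares of up to 1.10% and 3.33% of cells with one. Skeletal muscle also uses Pvalb, and of 5 muscle markers Ckm, Tnnt3 and Mylpf had no UMI in n18-EPL-IN, while Acta1 stood at 14.8 CPM and Tnnc2 at 6.14 CPM.

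Calb1 and Calb2 were seldom abundant in the same neuron. Of 100 neurons with at least 2 Calb1 UMIs, 3 also had at least 2 Calb2 UMIs (95% exact binomial interval 0.623 to 8.52%, covering counting error only), against 17.03% of the other neurons. With 1 UMI as the limit, 54 of 243 Calb1-bearing neurons had a Calb2 UMI (22.2%), against 31.4% of the others. In n08-PGC-3 the share of cells with a Calb2 UMI was 17.9% beside Calb1 and 14.8% without it, and no cell had more than 2. These shares lie near the 16.4% of nonneuronal cells, at similar depth. With cells thinned to 500 UMIs they were 5.90% beside Calb1 and 6.43% without it.

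Calb1 and Pvalb met in 3 neurons. Of the 92 Pvalb-bearing neurons, 37 had a Calb2 UMI (40.2%), against 31.3% of the others. Neurons with a Calb2 UMI were deeper, at a median of 1357 UMIs against 890. With cells thinned to 500 UMIs, Pvalb was no more frequent beside Calb2, at 0.170% against 0.206% of the other neurons. Of the 8 Pvalb-bearing cells of n18-EPL-IN, 3 had a Calb2 UMI and 0 a Calb1 UMI. No test was made of these shares.

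Transmitter genes were also counted beside each buffer, without a test. In n08-PGC-3, 0 of 117 Calb1-bearing cells had a Th UMI (95% exact binomial interval up to 3.10%) and 82.9% had a Gad1 UMI. The cells there without Calb1 had Th in 2.47% and Gad1 in 75.9%, at median depths of 1903 UMIs with Calb1 and 1474 without. With cells thinned to 500 UMIs, Gad1 was found in 46.4% beside Calb1 and 41.7% without it. In n03-GC-1, Gad1 was found in 50.9% of the Calb2-bearing cells and 49.2% of the others, at median depths of 1432 and 877 UMIs. Thinned to 500 UMIs, these shares were 23.1 and 26.0%, so that their order turned. Of the 8 Pvalb-bearing cells of n18-EPL-IN, 6 had Gad1. In n05-PGC-2, the few Calb1-bearing cells had Th in 70.0% (14 of 20), against 59.4% of the cells without Calb1, at median depths of 4395 and 1745 UMIs. Thinned to 500 UMIs, the order turned, with Th in 20.3% beside Calb1 and 33.9% without it. In n02-PGC-1, 2.44% of the Calb2-bearing cells had Th and 66.9% had Gad1, against 0% and 24.5% of the others, at median depths of 1877 and 764 UMIs. Thinned to 500 UMIs, the shares lay closer, at 0.660% and 27.0% against 0.497% and 22.3%. In n11-GC-5, Th was found in 34.6% of the Calb2-bearing cells and 12.8% of the others, and with cells thinned to 500 UMIs in 12.2% and 4.38%.

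By the correlation of mean log2(CPM + 1) over the 18 neuronal clusters, the 5 genes of 10677 most like Calb1 were Colq (Pearson's r 0.889), Gm19345, Cited4, Lbh and Sbspon (0.850), each highest in n08-PGC-3. The 5 most like Calb2 were Npffr1 (0.889), Apold1, Chml, Opn3 and RP24-402O2.2 (0.881), each highest in n02-PGC-1. The 5 most like Pvalb were Fam213a (0.822), Rph3a, Tmem132b, Cntnap1 and Rnaset2a (0.705), each highest in n18-EPL-IN. With Spearman's correlation in its place, Gm2a led for Calb1 and Pgm2 for Calb2, none of the 5 genes of either remained, and Fam213a and Rnaset2a remained for Pvalb. The clusters share the same 6 libraries, and the values are a description.

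The design asks whether odor deprivation or odor learning changed these genes. The share of adult-born neurons (16302 cells in the 12 clusters the study assigned to them) with a Calb2 UMI was 34.7 and 31.2% in controls, 44.0 and 41.0% in naris occluded and 28.4 and 21.5% in trained libraries. The naris occluded libraries were highest and the trained lowest. Naris occluded minus control was 9.54 percentage points, trained minus control -8.01 and trained minus naris occluded -17.6, each with p = 0.333 in a two-sided exact permutation test, the smallest value that 2 libraries against 2 can give. In cells of at least 1000 UMIs naris occluded minus control was 4.56 points. With no minimum on UMIs, trained minus control was -4.59 points without trained 2 and -11.4 points without trained 1. Without the cells of n02-PGC-1 and n03-GC-1, naris occluded minus control was 6.17 points and trained minus control -4.44 points. The share with at least 5 UMIs ordered the groups alike, at 16.6 and 14.7%, 20.7 and 22.1%, and 11.03 and 9.89%. With each cell thinned to 500 UMIs the share with any was 24.97 and 22.7%, 30.5 and 31.7%, and 20.1 and 15.4%. With n02-PGC-1 and n03-GC-1 left out, the share with any Calb2 UMI was 21.1 and 18.5%, 29.2 and 22.8%, and 18.3 and 12.4%.

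Other measures moved with this share. The cluster n03-GC-1 made up 7.77 and 6.34% of neurons in controls, 12.1 and 17.2% in naris occluded and 5.66 and 5.01% in trained libraries. The cluster n02-PGC-1 made up 5.78 and 5.86%, 5.47 and 3.99%, and 3.46 and 4.54%, so that naris occluded libraries lay below controls there. Over all cells, Calb2 stood at 825 and 641 CPM, 1045 and 1043 CPM, and 535 and 515 CPM. In nonneuronal cells it was at 112 and 91.5 CPM, 132 and 151 CPM, and 109 and 56.7 CPM, with a UMI in 17.6 and 14.1%, 23.6 and 17.2%, and 15.0 and 10.5% of cells. Median depth was 1212 UMIs in the adult-born neurons and 1645 in the nonneuronal cells. By library, that of the adult-born neurons was 1240 and 1100, 1519 and 1289.5, and 1018 and 1117.5 UMIs. The median mitochondrial share of all cells was 11.6 and 11.6%, 9.66 and 9.25%, and 14.4 and 10.5%. The part of these measures in the share of adult-born neurons with a Calb2 UMI was not tested.

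Within n03-GC-1 and n02-PGC-1 the level of Calb2 did not pass the test between any 2 groups (edgeR's quasi-likelihood test on summed counts, Benjamini-Hochberg adjusted over all genes tested). In n03-GC-1 the log2 fold change was 0.15 ± 0.11 (SE) for naris occluded against control, -0.26 ± 0.11 for trained against control and -0.41 ± 0.11 for trained against naris occluded, with adjusted p = 0.967, 0.876 and 0.202. These fits called 0.0715%, 0.0143% and 0.186% of genes. In n02-PGC-1 the changes were 0.13 ± 0.09, -0.14 ± 0.09 and -0.28 ± 0.09, with adjusted p = 0.949, 0.978 and 0.442, where 0.0858%, 0.0686% and 0.223% of genes were called. The trained libraries differed in level: trained 1 gave the lowest Calb2 level of the 6 libraries in both clusters, and trained 2 lay among the others. Over all cells trained 1 also had the lowest median depth of the 6, 1028 UMIs, and the highest median mitochondrial share, 14.4%. The part of these in its Calb2 level was not tested. The share of n03-GC-1 cells with at least 5 Calb2 UMIs was 77.0 and 71.4% in controls, 79.8 and 77.7% in naris occluded and 64.7% in both trained libraries, below the other 4. Without trained 2, trained against naris occluded passed the test in both, at -0.70 in n03-GC-1 (edgeR adjusted p = 3.29e-06) and -0.44 in n02-PGC-1 (0.00486), and trained against control passed in n03-GC-1 at -0.56 (0.00179). Without trained 1 the same 3 changes were -0.16, -0.16 and -0.0093, with edgeR adjusted p = 0.871, 0.929 and 0.996. In n03-GC-1 trained against naris occluded also passed without naris occluded 2, at -0.51 (edgeR adjusted p = 6.35e-05), and without the filter on low counts, at -0.44 (8.73e-05). Trained against control was -0.15 there without control 1.

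In n11-GC-5, Calb2 was lower in trained than in naris occluded mice by both edgeR and DESeq2. The fit of this cluster was not planned and was added after the data were seen. Its Calb2 level was 1081 and 1095 CPM in controls, 1586 and 1309 in naris occluded and 852 and 897 in trained libraries. The naris occluded libraries were highest there and the trained lowest. The log2 fold change of trained against naris occluded was -0.71 ± 0.13 (edgeR's quasi-likelihood test, adjusted p = 0.00452), in a fit that called 0.414% of genes. With naris occluded 1 left out it was -0.59 with adjusted p = 0.0598, and with trained 1 left out -0.70 with adjusted p = 0.113. Neither group differed from control past the threshold, at 0.39 ± 0.13 and -0.32 ± 0.13 (adjusted p = 0.983 and 0.628; 0.0609% and 0.122% of genes called).

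Per cell, n11-GC-5 held 2.36 and 2.43 Calb2 UMIs in controls, 3.97 and 2.87 in naris occluded and 1.67 and 1.95 in trained libraries. Nonneuronal cells held 0.217 and 0.175, 0.309 and 0.264, and 0.183 and 0.113 in the same order. The part of the nonneuronal level in the n11-GC-5 values was not tested. At least 5 Calb2 UMIs were found in 34 of 332 and 27 of 184 cells of the control libraries, 43 of 248 and 59 of 347 of the naris occluded, and 35 of 330 and 20 of 228 of the trained. As shares, both naris occluded libraries lay above both trained ones, and the controls spanned 10.2 to 14.7%. Among those Calb2-rich cells alone the level was 7028 and 4847, 6326 and 5577, and 5193 and 5638 CPM, and the 3 groups overlapped.

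**Figure D5:**
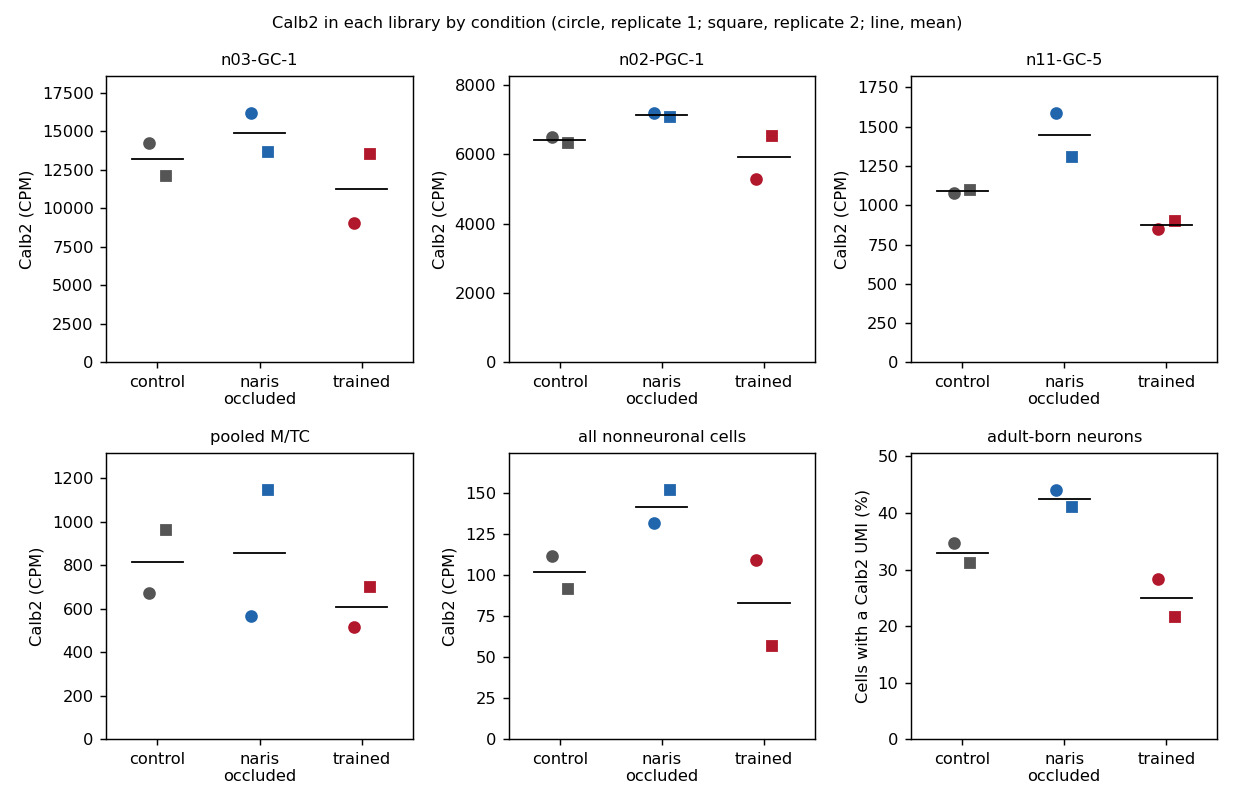
Calb2 in each library by group (control, naris occluded, trained), with 1 point per library and a line at the mean, as CPM for 4 sets of neurons and all nonneuronal cells and as percent of cells with a UMI for adult-born neurons. In n11-GC-5 the naris occluded libraries lie at 1586 and 1309 CPM and the trained at 852 and 897, and the nonneuronal cells lie at much lower levels, from 56.7 to 151 CPM.

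Across all 18 neuronal clusters, Calb2 passed the filter on low counts in 15, Calb1 in n08-PGC-3 alone and Pvalb in none. For trained against naris occluded, Calb2 was called in 3 of the 15 (0.191% of all gene and cluster pairs were called), each time lower in trained mice, with a lower value in 14 and a median log2 fold change of -0.87. Besides n11-GC-5 these were n13-AstrocyteLike at -0.94 ± 0.19 (edgeR adjusted p = 0.00282; 0.453% of genes called) and n07-GC-2 at -1.02 ± 0.22 (adjusted p = 0.0315; 0.231% of genes called). The levels were 476 and 462, 550 and 929, and 417 and 281 CPM in n13-AstrocyteLike, and 236 and 214, 365 and 354, and 229 and 110 CPM in n07-GC-2. DESeq2 called n11-GC-5 (adjusted p = 0.000634; 0.134% of genes called) but neither n13-AstrocyteLike (0.270; 0.0604% called) nor n07-GC-2 (1.00; 0.0243% called). The edgeR call in n13-AstrocyteLike was lost without naris occluded 2 (-0.55, adjusted p = 0.411) or trained 2 (-0.74, 0.340), and that in n07-GC-2 without naris occluded 1 (-0.96, 0.0624) or trained 2 (-0.61, 0.353).

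Those other 2 clusters held 0.332 Calb2 UMIs per cell in n13-AstrocyteLike and 0.240 in n07-GC-2. Both values lay within the range of nonneuronal clusters but above their median of 0.210. A Calb2 UMI was found in 707 of 2950 and 606 of 3608 cells, against 4749 of 28925 nonneuronal cells. At least 5 were found in 11 and 18 of these cells, against 48 of the nonneuronal cells. In the nonneuronal cells as a whole Calb2 changed by -0.75 ± 0.24 for trained against naris occluded (edgeR adjusted p = 0.281), where 0% of 14663 genes were called. The part of this shared level in the calls in n13-AstrocyteLike and n07-GC-2 was not tested. For naris occluded against control Calb2 was called in 0 of 15 clusters by edgeR (0.116% of all gene and cluster pairs called), with unadjusted p under 0.05 in 7 (5.3% of all gene and cluster pairs) and a higher value in 12. For trained against control it was also called in 0 of 15 (0.0553% called), with unadjusted p under 0.05 in 3 (5.38% of all pairs) and a lower value in 13. The comparisons share libraries and so are not independent of each other.

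In the mitral and tufted clusters n15 to n17 summed together, Calb2 changed by -0.04 ± 0.24, -0.46 ± 0.24 and -0.42 ± 0.25 in the 3 comparisons, with edgeR adjusted p = 0.987, 0.703 and 0.727 (0.416%, 0.121% and 0.156% of genes called). These values turned on single libraries: trained against naris occluded was -0.89 without naris occluded 1, where it passed the test (edgeR adjusted p = 0.0335), and 0.15 without naris occluded 2 (0.939), while naris occluded against control was 0.43 without naris occluded 1, 0.24 without control 2 and -0.63 without naris occluded 2. Calb1 in n08-PGC-3 changed by -0.11 ± 0.26, -0.12 ± 0.28 and -0.01 ± 0.28, with adjusted p = 1.00 in each (0.0979%, 0.049% and 0.147% of genes called). These turned as well, to 0.18 without naris occluded 1 for the first, 0.21 without trained 2 for the second, and 0.34 without naris occluded 2 and 0.32 without trained 2 for the third. The SEs, which measure the spread between libraries, were 0.24 to 0.28. Pvalb in n18-EPL-IN lay below the filter on low counts. Fitted without the filter, its edgeR adjusted p was 0.976, 0.965 and 0.960 in the 3 comparisons, from groups of 0 and 0, 1 and 2, and 4 and 3 UMIs.

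Of a list of 42 EF-hand genes, 25 could be tested in n02-PGC-1, 29 in n03-GC-1, 14 in n08-PGC-3, 30 in n11-GC-5, 4 in n18-EPL-IN and 25 in the pooled mitral and tufted cells, and of 28 genes for calcium extrusion and stores 8, 10, 6, 17, 4 and 16. Only S100a5, an EF-hand gene that is characteristic of olfactory sensory neurons, was called, and no gene of the extrusion list was, in fits that called from 0% to 1.74% of all genes, so that calls were rare in and outside the lists. It was lower in naris occluded than in control libraries by log2 fold changes of -1.71 in n02-PGC-1, -1.73 in n03-GC-1, -2.03 in n08-PGC-3, -1.70 in n11-GC-5, -1.95 in the mitral and tufted cells and -2.34 in n18-EPL-IN (1.74% of genes called in the last, where trained against control called 0.772% and S100a5 was not among them). It was higher in trained than in naris occluded libraries by 1.66 in n03-GC-1, 1.98 in n08-PGC-3, 1.56 in n11-GC-5 and 1.46 in the mitral and tufted cells. In nonneuronal cells S100a5 stood at 708 and 674 CPM in controls, 259 and 137 in naris occluded and 821 and 420 in trained libraries. In the sensory neurons n01-OSNs it stood at 28031 and 25567, 15027 and 10026, and 19259 and 25037 CPM, and the part of either level in the calls above was not tested.

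The medians of the lists are given as a description, and no difference between clusters was tested. For trained against naris occluded the median log2 fold change of the tested EF-hand genes was -0.02 in n03-GC-1, -0.03 in n02-PGC-1, -0.03 in n11-GC-5, -0.11 in n08-PGC-3 and -0.10 in the mitral and tufted cells, against 0.0046, 0.0052, 0.0026, -0.0034 and 0.0022 for all genes tested. In n18-EPL-IN, with 4 EF-hand genes tested, it was 0.52 against -0.02 for that comparison and -0.43 against 0.03 for naris occluded against control. The extrusion list had its farthest medians at 0.40 in n18-EPL-IN for trained against control (all genes -0.01) and -0.38 in the mitral and tufted cells for naris occluded against control (all genes 0.01), where 4 of 16 members and 9.73% of all genes tested had an unadjusted p under 0.05. By counts of 3′ ends, which do not scale with transcript length, Calm2 had the highest CPM of the list in n03-GC-1 (2875), n02-PGC-1 (3331), n08-PGC-3 (2971) and n18-EPL-IN (1637). Also among the genes of highest level were Kcnip2 in n03-GC-1 and n02-PGC-1, S100a5 in n08-PGC-3 at 515 ± 332 CPM and Calm3 in n18-EPL-IN at 589 CPM. The level of S100a5 in n08-PGC-3 lay near that of all nonneuronal cells, 501 CPM, and far below the 20491 CPM of n01-OSNs. Of the neuronal clusters, the sensor genes Hpcal1 and Hpca were highest in the Calb1 cluster n08-PGC-3, at 202 ± 48.0 and 180 ± 73.1 CPM. Over all nonneuronal cells they stood at 20.0 and 4.17 CPM. Hpcal1 had no UMI in n02-PGC-1 and stood at 1.503 CPM in n03-GC-1. Of the neuronal clusters, the calcium pump Atp2b1 was highest in n02-PGC-1 at 2220 ± 149 CPM, against 796 ± 171 in n03-GC-1 and 173 ± 60.8 in n08-PGC-3. It was also high in n07-GC-2, n14-GC-7 and n12-GC-6, at 1895, 1549 and 1478 CPM. The pump Atp2a2 and the exchanger Slc24a2 were highest of the neuronal clusters in n18-EPL-IN, at 1324 ± 309 and 440 ± 90.3 CPM.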

How the data were processed

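The authors deposited counts of UMIs per gene and cell from 10x Chromium 3′ v2 libraries of dissociated olfactory bulbs, made per the labels with Cell Ranger 2.0.0 and the mm10 build and clustered with Seurat 2.2.1, with tables of cluster and library for each cell. These deposited counts are raw and were used unchanged. A mitochondrial fraction of UMIs in each cell, computed by the authors, was summarized per library and used in no test. The deposited annotation was used for all clusters, no doublet caller was run, and barcodes without a cluster were left out.

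The members and the gene lists were chosen with earlier results of these data known. For each cluster and library, UMIs were summed and scaled to CPM. Groups were compared on summed counts with edgeR 4.0.16 (R 4.3.3; filterByExpr, TMM, quasi-likelihood test on all 6 libraries, adjusted p under 0.05), and single values with exact permutation tests. The same scripts fitted all 18 neuronal clusters, the pooled mitral and tufted cells and all nonneuronal cells. Each library was a pool of mice that the study's supplement lists as a batch of its own, so p-values measure the spread between these pools, batches included. Libraries held 11841160 to 17065083 UMIs. Intervals and limits from counts of 0 (3 counts) cover counting error only.

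Named genes were the members, the 5 genes most correlated with each over clusters, called genes of the calcium lists and the 3 EF-hand genes of highest level in each member's top cluster. One of these genes is not reported here. Scgn, Zic1, Trh, Th and the other genes of the division of n11-GC-5, and Hpcal1, Hpca, Atp2b1, Atp2a2 and Slc24a2, were named after their values were seen. The alternatives comprised DESeq2 1.42.0, no TMM factors, no filter, cells of at least 1000 UMIs, 4 libraries only, a replicate block and each library left out. Sequences came from GENCODE vM1, and positions from RefSeq. Other software was Python 3.11.15, numpy 2.4.6, pandas 2.3.3, scipy 1.17.1, biopython 1.88 and matplotlib 3.10.9. The fits were tested on simulated counts first.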

Additional observations from a re-analysis of the deposited data

Results flagged for a closer look

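Calb2 was also found in cells that the comparisons did not use. Of the 1123 barcodes without a cluster, 95 (8.46%) had at least 5 Calb2 UMIs, against 5.26% of all annotated cells and 0.166% of nonneuronal cells, at a median depth of 2327 UMIs against 1354 and 1645. They held 1966 Calb2 UMIs in all, and up to 65 in one cell. Of the 755 neurons that were left out of the second annotation, 24 (3.18%) had at least 5 Calb2 UMIs, at a median depth of 2213. The barcodes without a cluster also held 21 Calb1 UMIs, of which a cell had at most 7. They were not compared between groups.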

How the results depend on the processing

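Of the alternatives, 221 were planned and 6 were added after the data were seen (the fits of n11-GC-5 and of the remaining clusters among them). For the main comparisons, 292 recomputed values kept their direction and side of the threshold and 13 turned. Of the rest, 6 passed the threshold anew and 2 no longer passed it, and the causes were not tested. The added comparisons of Calb2 in n11-GC-5 are counted among these. Fits without 1 library assume that the lone sample varies like the other groups.

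Calb2 in trained against naris occluded ranged, with each library left out, from -0.44 to -0.16 in n02-PGC-1, from -0.70 to -0.16 in n03-GC-1, from -0.83 to -0.59 in n11-GC-5 and from -0.89 to 0.15 in the pooled mitral and tufted cells. It passed the edgeR threshold in n02-PGC-1 without trained 2, in n03-GC-1 without trained 2 or naris occluded 2, and in the mitral and tufted cells without naris occluded 1. Without the filter on low counts it was -0.44 in n03-GC-1 (edgeR adjusted p = 8.73e-05). For trained against control the range was -0.56 to -0.0093 in n03-GC-1, -0.30 to -0.02 in n02-PGC-1 and -0.70 to -0.20 in the mitral and tufted cells. For naris occluded against control in n03-GC-1 it was 0.046 to 0.27. For naris occluded against control in the mitral and tufted cells the range was -0.63 to 0.43, and without TMM factors the value was 0.053.

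Calb1 in n08-PGC-3 ranged from -0.49 to 0.18, from -0.95 to 0.21 and from -0.85 to 0.34 in the 3 comparisons. Its value for trained against naris occluded was 0.13 with cells of at least 1000 UMIs and 0.0094 with the replicate block. In nonneuronal cells, trained minus control ranged from -0.905 to 0.309 CPM for Calb1 and from -44.9 to 7.63 CPM for Calb2, and for Calb1 it was 0.484 CPM in cells without a UMI of Snap25, Syt1 or Gad1.

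Same-numbered libraries share a sex, and the study's supplement lists each library as its own batch. The deviations of same-numbered libraries correlated at -0.189 to 0.170. The replicate block kept all 3 calls of Calb2 and made no new call among the main comparisons. Genes called for trained against naris occluded numbered 34 in n11-GC-5 (DESeq2 11, block 66), 13 in n03-GC-1 (2 and 30), 13 in n02-PGC-1 (3 and 20), 3 in n08-PGC-3 (0 and 3) and 0 in n18-EPL-IN (0 and 2, with 26 at unadjusted p under 0.05). In each of these clusters the count also moved when a single library was left out. In n18-EPL-IN the 3 genes lay below the filter, so their planned comparisons gave no value with it. Few UMIs stood behind Pvalb in every cluster and behind Calb1 outside n08-PGC-3.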
